A study of Mus musculus with 4 samples.

Results

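The IL-10 family is a group of helical cytokines and the paired receptor chains they bind, and this account follows 10 of its genes in mouse CD4 T cells treated with a bromodomain inhibitor. The genes were listed by name: the cytokines Il10, Il19, Il20 and Il24, the receptor chains Il10ra, Il10rb, Il20ra, Il20rb and Il22ra1, and the soluble receptor Il22ra2. A gene was kept if the array table held a row annotated to that symbol alone, which gave 9 of the 10 among 14860 measured genes, 4 cytokines and 5 receptor genes. Il20rb had no such row and was not analysed here.

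One group of cells received 150 nM JQ1, which fills the pockets through which BET bromodomain proteins hold acetylated histones and so frees these proteins from chromatin. The control cells received the solvent DMSO. There were 2 samples of each, all labelled 48 hours, although one label also speaks of stimulation for 4 days. In all samples the cells were naive CD4 T cells taken from C57BL/6 spleens, more than 90% pure per the labels, and activated with beads against CD3 and CD28. The medium held 5 ng/ml TGF-β1, 20 ng/ml IL-6, 20 ng/ml IL-23 and blocking antibodies to IL-4 and interferon-γ, a mix that drives the TH17 fate, named for the cytokine IL-17. No label gives the age of the mice or says whether the replicates were grown apart or from different animals, so the p-values may reflect technical spread alone.

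IL-10 is the main inhibitory cytokine of helper T cells and limits inflammation, and TH17 cells raised with TGF-β and IL-6 are known to make it. It binds a receptor of IL-10Rα, the ligand-specific chain, and IL-10Rβ, a chain shared with other cytokines, and signals through the kinases JAK1 and TYK2 to STAT3. IL-19, IL-20 and IL-24 instead bind receptors that hold IL-20Rβ, paired with IL-20Rα or, for some of these cytokines, with IL-22Rα1. These receptors are found mainly on epithelial cells, while IL-22Rα2 is a secreted protein that traps its ligand.

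Values are log2 signals from RMA, a method that corrects, scales and summarises array probes. A change is the log2 signal with JQ1 minus that with DMSO, tested with limma and adjusted by the Benjamini-Hochberg method over all 14860 genes, with a threshold of 0.05. The number of arrays limits the precision. Because the arrays carry no detection calls, levels are set beside 5.80, the 95th percentile of the means of 800 olfactory and vomeronasal receptor genes, which T cells are not known to use. Across all genes Pearson r was 0.982 between the JQ1 arrays and 0.981 between the DMSO arrays. Between a JQ1 and a DMSO array it was 0.976 to 0.98, nearly as high. The T cell list had 7 of 7 measured genes above 5.80 on every array. These were Cd3d, Cd3e, Cd3g, Cd247, Cd4, Thy1 and Cd28.

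No IL-10 family gene passed the adjusted test, which called 0.00673% of all genes as lower and 0% as higher. Il10 and Il24 were the members that were lower with JQ1 at an unadjusted limma p below 0.05, 2 of 9 or 22.2%, where 8.26% of all genes were lower by that measure. No member was higher by it, against 1.72% of all genes. The groups did not overlap for 3 members. Both JQ1 arrays lay below both DMSO arrays for Il10 and Il24 (31.4% of all genes), and above them for Il22ra2 (10% of all genes). The median change of the 9 members was -0.07, close to the -0.09 of all genes, and the 7 members other than Il10 and Il24 had changes from -0.66 to 0.18. Without DMSO replicate 2, the JQ1 arrays lay below the DMSO array for 4 members. Such an order is easier to reach against a single array, and its share over all genes was not computed. The background leaned to the lower side by an amount that moved with the scaling. As deposited, 1228 genes were lower and 255 higher at an unadjusted limma p below 0.05. They numbered 679 and 572 after each array was centred on its median over all measured genes.

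**Figure D1:**
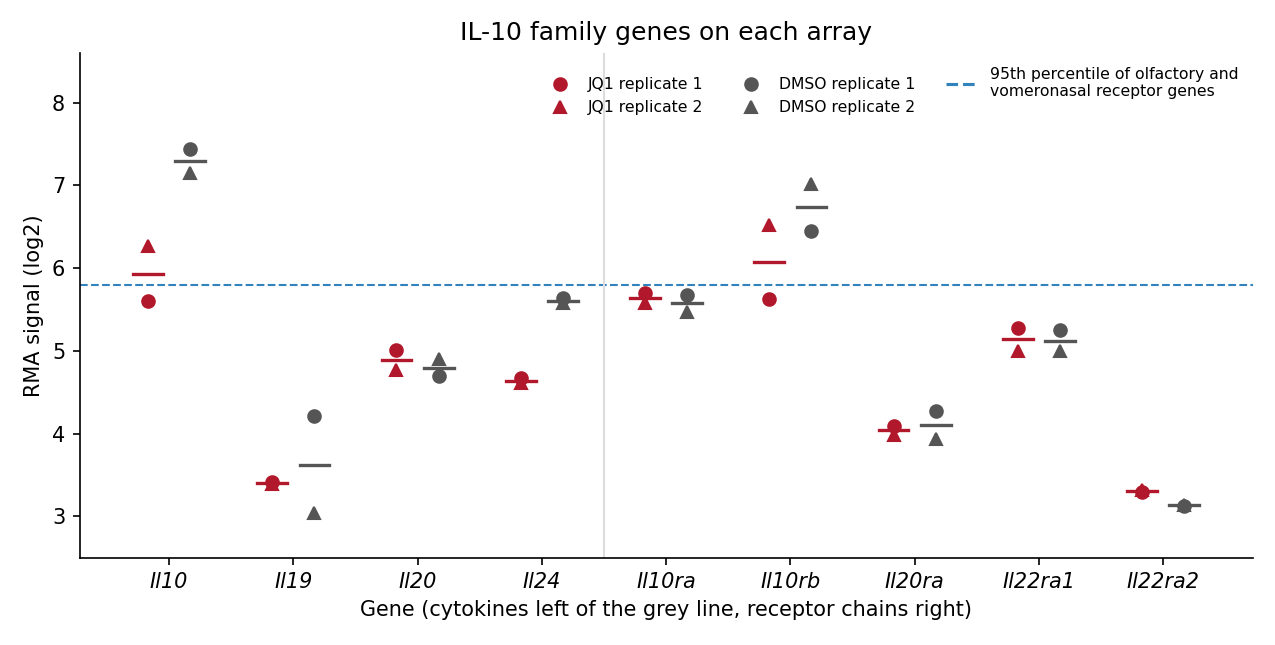
RMA signal (log2, y axis) of the 9 measured IL-10 family genes (x axis) on each of the 2 JQ1 arrays (red) and 2 DMSO arrays (grey). Points are arrays, bars are group means, and the dashed line marks 5.80. Il10 and Il24 separate with JQ1 below DMSO, and the other genes except Il22ra2 overlap.

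Il10 (Entrez gene 16153), the gene of the family's founding cytokine, had log2 signals of 5.60 and 6.26 on the JQ1 arrays, against 7.45 and 7.15 on the DMSO arrays. Every JQ1 value lay below every DMSO value, the 2 JQ1 arrays stood 0.66 apart, and the lower of them was under 5.80. Il10 averaged 5.93 ± 0.47 with JQ1 and 7.30 ± 0.21 with DMSO (SD, n = 2 each), a 2.58-fold lower signal with JQ1. The change of -1.37 (SE 0.26, 95% interval -2.02 to -0.72) was the 51st lowest among 14860 genes, and its limma p was 0.00256 before adjustment and 0.268 after it. In bulk RNA, fewer cells that make a transcript and less of it per cell cannot be told apart.

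Il24 (Entrez gene 93672) encodes a cytokine that signals through the IL-20 receptor chains and is made by some activated T cells, TH2 cells among them. Its log2 signals were 4.67 and 4.61 with JQ1, against 5.63 and 5.58 with DMSO. Replicates agreed within 0.06 in both groups while the groups stood about a log2 unit apart, and all 4 values lay under 5.80. The means were 4.64 ± 0.039 with JQ1 and 5.60 ± 0.041 with DMSO (SD, n = 2 each), a 1.95-fold lower signal with JQ1. The change of -0.97 (SE 0.14, 95% interval -1.32 to -0.61) had a limma p of 0.000728 before adjustment and 0.212 after it.

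Il19 and Il20 encode the remaining cytokines, both best known from skin and myeloid cells. Il19 (Entrez gene 329244) was at 3.42 and 3.39 with JQ1, against 4.21 and 3.04 with DMSO, so the JQ1 values lay inside the range of the DMSO ones. Its change was -0.22 (SE 0.38, 95% interval -1.17 to 0.74), and it was 0.36 without DMSO replicate 1 and -0.80 without DMSO replicate 2 (limma unadjusted p = 0.00949, adjusted p = 0.391, the lowest of 0.391 to 0.962 over all alternatives). Il20 (Entrez gene 58181) was at 5.01 and 4.76 with JQ1, against 4.69 and 4.90 with DMSO, with a change of 0.09 (SE 0.17, 95% interval -0.34 to 0.52). All 4 arrays were under 5.80 for both genes, and the interval of Il19 is wide enough to hold the size of the change seen for Il24.

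The 4 cytokine genes stand in a row on mouse chromosome 1 in the RefSeq gene table of GRCm38.p6, in the order Il24, Il20, Il19, Il10, with Fcmr next to Il24 and Mapkapk2 next to Il10. The genes with lower signals thus formed the ends of the row and Il20 and Il19 its middle. Whether the changes of these 4 genes differ from one another was not tested, and Il24, Il20 and Il19 lay under 5.80 on every array.

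The bases before the annotated starts of Il19 and Il20 are shown because these genes lie between Il24 and Il10 and had no lower signal at an unadjusted p below 0.05. Of the 10 genes, 5 had an entry in the RefSeq promoter table of GRCm38.p6: Il19, Il20, Il20ra, Il20rb and Il22ra1. Il10 and Il24 had no entry, so the genes with lower signals could not be searched or compared. Each sequence runs 5′ to 3′ on the strand of the gene and ends at the base before its start. Capitals mark matches to TTCNNNGAA, the spaced palindrome bound by STAT proteins.
Il19, chr1:130940116-130940365, minus strand: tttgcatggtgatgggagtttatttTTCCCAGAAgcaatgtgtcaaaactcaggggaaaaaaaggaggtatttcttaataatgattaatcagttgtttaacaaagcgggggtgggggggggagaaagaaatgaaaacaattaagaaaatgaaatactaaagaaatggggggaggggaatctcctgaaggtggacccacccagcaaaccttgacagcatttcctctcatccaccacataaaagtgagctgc
Il20, chr1:130911297-130911546, minus strand: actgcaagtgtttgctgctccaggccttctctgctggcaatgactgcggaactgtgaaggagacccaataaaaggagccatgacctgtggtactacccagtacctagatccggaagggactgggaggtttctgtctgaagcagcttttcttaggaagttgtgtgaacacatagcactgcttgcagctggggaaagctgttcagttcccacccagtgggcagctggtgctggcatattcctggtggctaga
Both strands were searched for 3 motifs that do not overlap here: TTCNNNGAA, the AP-1 motif TGANTCA and the TATA motif TATAAA. The Il19 window held 1 STAT match, starting 225 bases before the start, and no match to the others. The Il20 window held none of the 3. In windows of 250 bases before 32851 annotated starts, 7.02% held the STAT motif, 6.75% the AP-1 motif and 12.4% the TATA motif. Among the receptor genes, Il20ra and Il22ra1 each held 1 AP-1 match, 164 and 222 bases before their starts, and Il20rb held none of the 3. A match describes these letters and does not show that a factor binds there.

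The genes on both sides of the cytokine row had changes of both signs. Of 10 measured neighbours from a listed set of 12, none passed the adjusted limma test. At an unadjusted p below 0.05, 1 was lower and 2 were higher, and the median change was -0.09. Mapkapk2, the stress kinase next to Il10, was at 8.01 and 8.15 with JQ1, against 8.45 and 8.48 with DMSO (change -0.39, SE 0.15). Its unadjusted limma p was below 0.05 under 5 of 13 alternatives: it was up to 0.134 under the 3 other scalings, none of which kept it below 0.05 and where the change was -0.27 to -0.23, 0.0573 with the replicate block, and 0.0714 to 0.173 with any 1 array left out. Ikbke, a kinase of interferon and NF-κB signalling, was at 7.82 and 7.57 with JQ1, against 7.24 and 7.27 with DMSO (0.44, SE 0.16). Pfkfb2, an enzyme that sets the level of a glycolysis activator, was at 6.65 and 6.99 with JQ1, against 6.28 and 6.22 with DMSO (0.57, SE 0.17). Both missed that threshold with either DMSO array left out, Ikbke also without JQ1 replicate 1 (change 0.31) and Pfkfb2 without JQ1 replicate 2 (change 0.40). The other 7 were Yod1 at -0.35, Fcamr at -0.11, Dyrk3 at -0.11, Rassf5 at -0.10, Pigr at -0.08, Eif2d at 0.14 and C4bp at 0.16. The signs of Fcamr, Dyrk3, Rassf5 and Pigr turned positive when the arrays were centred.

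**Figure D2:**
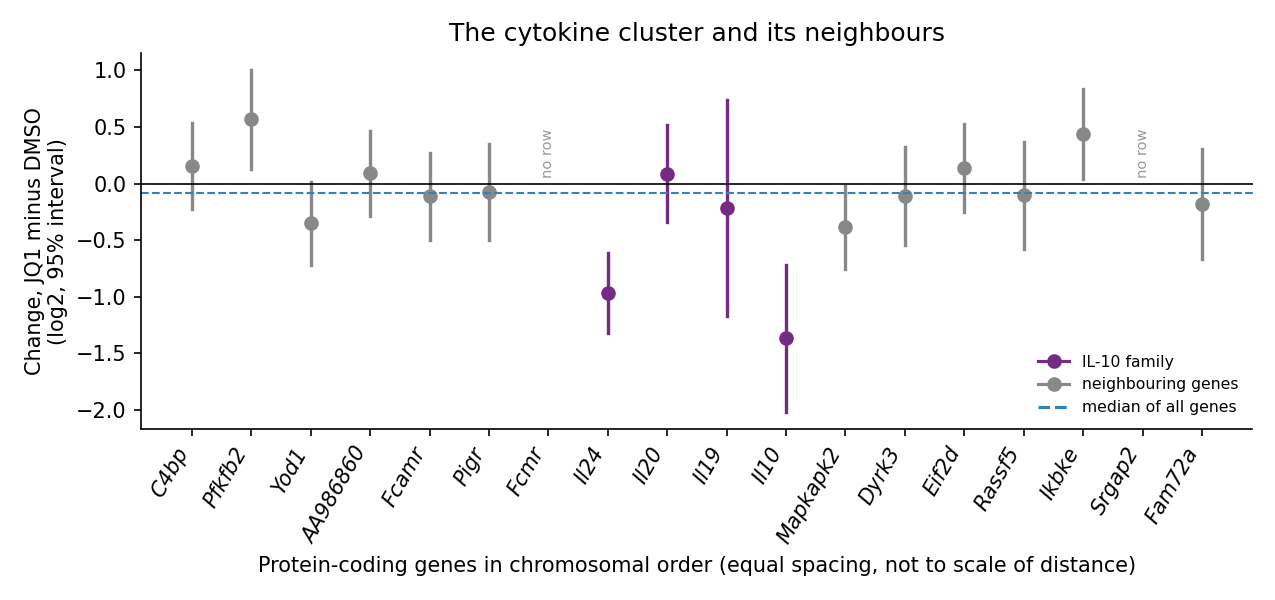
Change with JQ1 minus DMSO (log2, y axis) of the cytokine genes (purple) and neighbouring protein-coding genes (grey) in chromosomal order (x axis, equal spacing). Points are limma estimates from 2 arrays against 2, lines are 95% intervals, and the dashed line is the median of all genes. Il24 at -0.97 and Il10 at -1.37 are the lowest points, with Il20 and Il19 between them.

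The chains of the IL-10 receptor showed no change that passed the test. Il10ra (Entrez gene 16154), the ligand-specific chain, was at 5.70 and 5.57 with JQ1, against 5.68 and 5.47 with DMSO. The groups overlapped almost fully, with a change of 0.06 (SE 0.16, 95% interval -0.33 to 0.46), and all 4 values were under 5.80.

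Il10rb (Entrez gene 16155), the shared chain, was the receptor gene with the lowest change. Its log2 signals were 5.62 and 6.52 with JQ1, against 6.45 and 7.01 with DMSO. The replicates stood 0.90 apart with JQ1 and 0.56 apart with DMSO, and JQ1 replicate 2 lay above DMSO replicate 1. The means were 6.07 ± 0.63 with JQ1 and 6.73 ± 0.40 with DMSO (SD, n = 2 each). The change of -0.66 (SE 0.35, 95% interval -1.54 to 0.22; limma adjusted p = 0.590) was larger than the SD of either group but smaller than the distance between the JQ1 arrays, and the interval holds both no change and a difference larger than that of Il24. With 1 array left out the change ranged from -1.11 without JQ1 replicate 2 to -0.21 without JQ1 replicate 1.

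The 3 other receptor genes, which belong to the IL-20 type receptors or trap ligand outside cells, had all 4 arrays under 5.80. Il20ra (Entrez gene 237313) was at 4.10 and 3.98 with JQ1, against 4.28 and 3.94 with DMSO, and Il22ra1 (Entrez gene 230828) was at 5.28 and 5.00 with JQ1, against 5.25 and 5.00 with DMSO. Both groups overlapped, with changes of -0.07 (SE 0.18), which became 0.05 after centring, and 0.02 (SE 0.18). Il22ra2 (Entrez gene 237310) was at 3.29 and 3.32 with JQ1, against 3.12 and 3.14 with DMSO. This was the member with both JQ1 arrays above both DMSO arrays, by a change of 0.18 (SE 0.14, 95% interval -0.17 to 0.53) at signals below 3.61, the median of the olfactory and vomeronasal receptor genes.

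**Figure D3:**
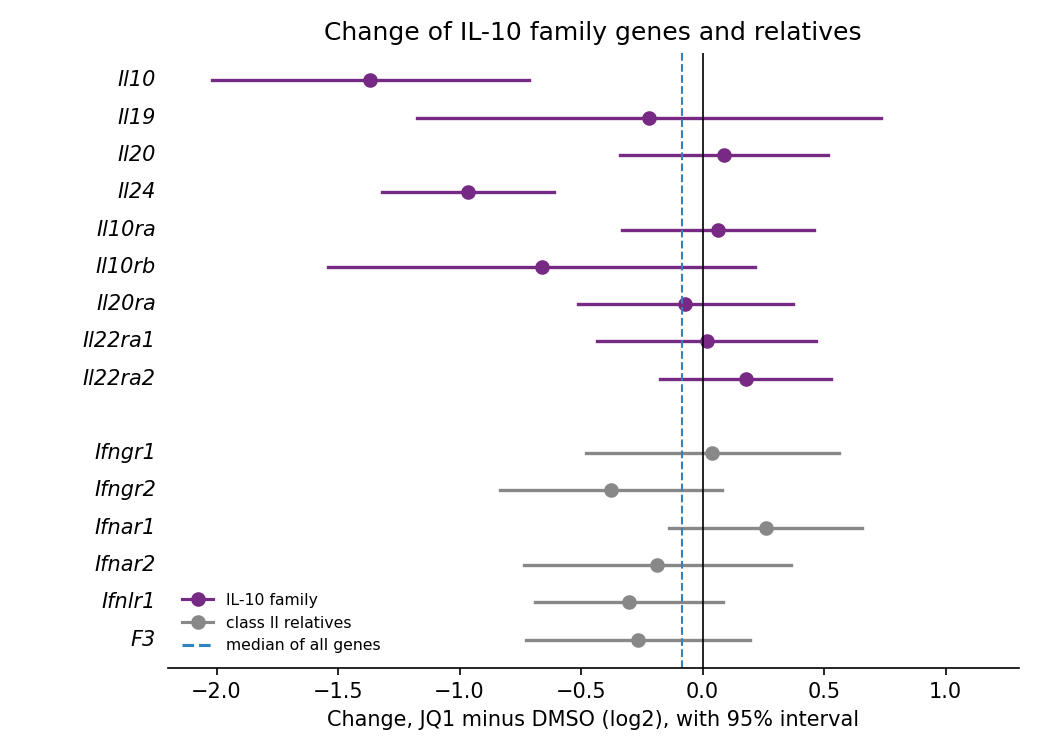
Change with JQ1 minus DMSO (log2, x axis) of the IL-10 family genes (purple) and of related class II receptor genes (grey), from 2 arrays against 2. Points are limma estimates, lines are 95% intervals, and the dashed line is the median of all genes, -0.09. The intervals of Il10 and Il24 lie wholly below 0, and all others include it.

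Receptors of the interferons share the fold of the IL-10 receptor chains, and some share their chromosomal position. In the RefSeq gene order Il10rb stands between Ifnar2 and Ifnar1 on chromosome 16, with Ifngr2 after them, Ifngr1, Il22ra2 and Il20ra follow each other on chromosome 10, and Ifnlr1 is next to Il22ra1 on chromosome 4. Of 6 measured relatives of 8 listed, 0 passed the adjusted limma test and 0 had an unadjusted p below 0.05, and their median change was -0.23. Ifnar1, a chain of the type I interferon receptor, was at 6.83 and 7.04 with JQ1, against 6.74 and 6.61 with DMSO (0.26, SE 0.16). Its partner Ifnar2 was at -0.19 (SE 0.22), the interferon-γ receptor chains Ifngr1 and Ifngr2 at 0.04 (SE 0.21) and -0.38 (SE 0.18), the type III interferon receptor gene Ifnlr1 at -0.30 (SE 0.15), and F3, the tissue factor of blood clotting, at -0.27 (SE 0.18).

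Genes of the kinases, STAT factors and inhibitors below these receptors had changes between -0.28 and 0.44. Of 14 measured from a listed set of 15, 0 passed the adjusted limma test, 0 were lower and 2 were higher at an unadjusted p below 0.05, and the median change was 0.06. The kinase gene Jak1 was at 10.22 and 10.34 with JQ1, against 10.32 and 10.13 with DMSO (change 0.05, SE 0.15), and Tyk2 was at -0.10 (SE 0.14), which turned to 0.01 after centring. Stat3 was at 9.50 and 9.58 with JQ1, against 9.63 and 9.58 with DMSO (-0.07, SE 0.14), and its sign turned positive under each of the 3 other scalings. Socs3, a STAT3 target that blocks signalling, was at 6.50 and 6.02 with JQ1, against 6.35 and 5.52 with DMSO (0.33, SE 0.32), and its change was 0.01 when the mean of its 2 rows was used.

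The 2 genes that were higher encode feedback inhibitors known as targets of STAT5. Cish was at 8.43 and 8.62 with JQ1, against 8.07 and 8.09 with DMSO (change 0.44, SE 0.15), and Socs2 was at 10.80 and 10.98 with JQ1, against 10.44 and 10.52 with DMSO (0.41, SE 0.15). Both JQ1 arrays lay above both DMSO arrays in each case, an order seen in 10% of all genes that largely comes with a small p. Cish missed the unadjusted threshold without JQ1 replicate 2 (change 0.35) and with either DMSO array left out, and Socs2 missed it with any 1 array left out (changes 0.32 to 0.50). Stat5b and the phosphatase gene Ptpn6 were both at -0.28, and both at -0.10 after cyclic loess.

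Genes that IL-10 induces, a list known mainly from macrophages, gave 0 of 14 past the adjusted limma test and 2 lower and 0 higher at an unadjusted p below 0.05, with a median change of -0.12. Il1rn, which encodes the antagonist of the IL-1 receptor, was at 5.44 on both JQ1 arrays, against 7.20 and 6.32 on the DMSO arrays (change -1.32, SE 0.30). The JQ1 values were under 5.80, and the DMSO arrays stood 0.88 apart. Without DMSO replicate 1 the change was -0.88. Etv3, a transcriptional repressor, was at 7.87 and 7.65 with JQ1, against 8.32 and 8.34 with DMSO (-0.57, SE 0.16). Its unadjusted limma p was 0.0506 after quantile normalization, 0.0615 after cyclic loess and 0.0737 without JQ1 replicate 2. Ddit4, a brake on mTOR, was at 0.56 (SE 0.27), and at 0.25 without JQ1 replicate 2. Il4ra, the IL-4 receptor chain, was at -0.25 (SE 0.17), at -0.06 after cyclic loess and at -0.11 without JQ1 replicate 1.

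Transcription factors that act on Il10 in T cells gave 0 of 16 measured (17 listed) past the adjusted limma test, 3 lower and 0 higher at an unadjusted p below 0.05, and a median change of -0.15. Ahr, the aryl hydrocarbon receptor, which promotes Il10 in helper T cells, was at 7.92 and 8.06 with JQ1, against 8.64 and 8.82 with DMSO (change -0.74, SE 0.16). Batf, an AP-1 family partner of IRF4, was at 9.00 and 9.36 with JQ1, against 10.01 and 9.81 with DMSO (-0.73, SE 0.19). Smad3, which carries TGF-β signals, was at 7.28 and 7.44 with JQ1, against 7.91 and 7.80 with DMSO (-0.49, SE 0.15). In all 3 genes, named for their small p, both JQ1 arrays lay below both DMSO arrays, an order seen in 31.4% of all genes. Such an order largely comes with a small p and adds no support of its own. The next gene, Jun, was at -0.35 (SE 0.16). Ahr kept an unadjusted limma p below 0.05 under all 13 alternatives. Without JQ1 replicate 1 that p was 0.0546 for Batf and 0.101 for Smad3, and without DMSO replicate 1 it was 0.0506 and 0.0832.

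Among receptors that induce Il10 in T cells, with the cytokine gene Il21, 0 of 11 measured (12 listed) passed the adjusted limma test, 3 were lower and 1 was higher at an unadjusted p below 0.05, and the median change was -0.25. Il21, an autocrine cytokine that promotes IL-10, was at 8.25 and 8.47 with JQ1, against 9.07 and 9.02 with DMSO (change -0.69, SE 0.15). Its receptor gene Il21r was higher, at 8.18 and 8.55 with JQ1, against 7.77 and 7.83 with DMSO (0.57, SE 0.18). The IL-12 receptor genes Il12rb2 and Il12rb1 were at -0.81 (SE 0.25) and -0.50 (SE 0.16), the first with all arrays under 5.80. Of these 4 genes Il21 kept an unadjusted limma p below 0.05 under all 13 alternatives. Il12rb2 missed it without JQ1 replicate 2 or DMSO replicate 1, Il21r without JQ1 replicate 2 or with either DMSO array left out, and Il12rb1 after centring, without JQ1 replicate 1 or with either DMSO array left out, with p between 0.0601 and 0.124. Most genes of these lists and of the chromosomal neighbours were above 5.80 on every array, whereas shares of all genes include dim ones. With only genes above the median of brightness kept, 1048 were lower and 145 higher at an unadjusted limma p below 0.05. Over all genes these numbers were 1228 and 255. Over the 69 distinct genes of the lists and neighbours, 9 were lower (13%, against 8.26% of all genes) at that p. By the same measure 5 were higher (7.25%, against 1.72% of all genes). Shares at a like brightness were not computed. Lower genes made up a larger share of the genes above the median of brightness than of all genes. The 13% therefore does not show that the lists hold more lower genes than others as bright. The 9 became 4 without DMSO replicate 1, and the 5 became 1 without JQ1 replicate 2 and with either DMSO array left out.

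**Figure D4:**
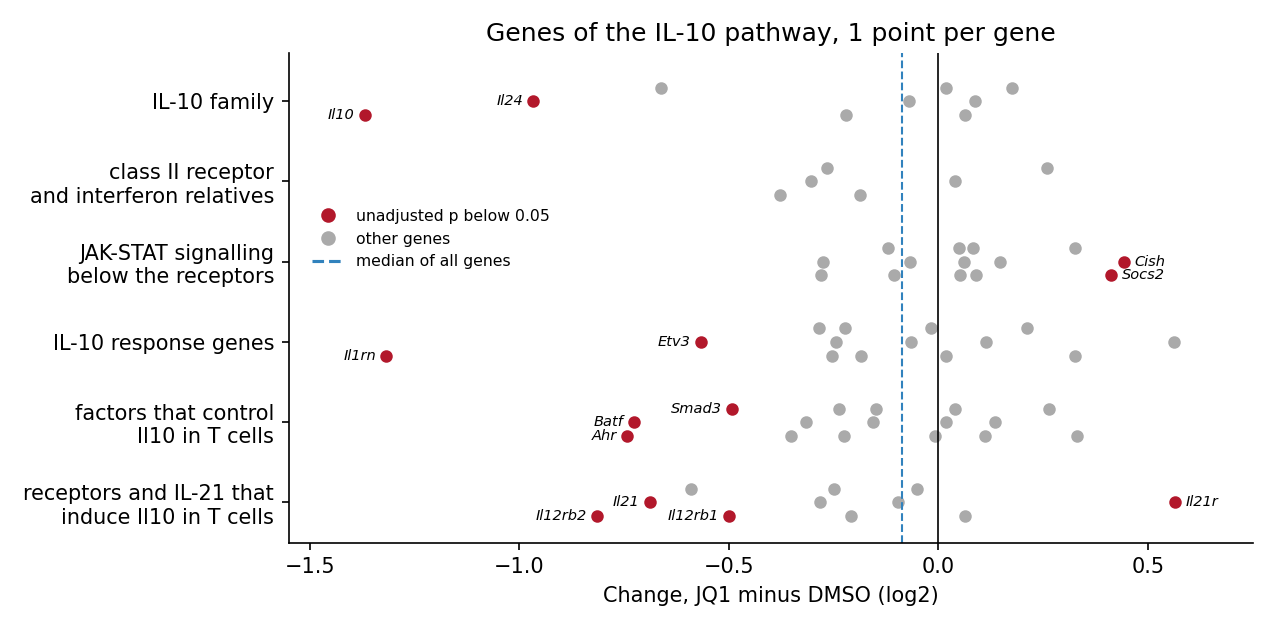
Change with JQ1 minus DMSO (log2, x axis) of each measured gene of the IL-10 family and 5 lists of the IL-10 pathway (y axis, points spread vertically for visibility). Red points have an unadjusted limma p below 0.05, and the dashed line is the median of all genes, -0.09. Il10 and Il1rn are the lowest points, at -1.37 and -1.32, and Il21r, Cish and Socs2 are the red points above 0.

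The genes whose 4-array pattern was most like that of Il10 were Sting1, Cxcr4, Pop4, AA467197 and Pdlim5. Likeness was the root mean square difference over the 4 arrays after centring each gene on its own mean, among 8038 genes with a mean above 5.80. This difference ran from 0.083 for Sting1, the sensor adaptor of cytosolic DNA signalling, and 0.086 for Cxcr4, the receptor for CXCL12, to 0.13 for Pdlim5. Sting1 was at 6.69 and 7.27 with JQ1, against 8.53 and 8.39 with DMSO. Pdlim5 had 2 rows, of which the brighter was used. Its change ran from -1.46 to -0.86 over the alternatives that left out no array. All 5 shared with Il10 a JQ1 replicate 1 that lay below JQ1 replicate 2 and a DMSO replicate 1 above DMSO replicate 2, and the likeness was chosen on the same arrays.

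Marker lists moved with these groups in part. Of the 7 T cell genes 1 was lower at an unadjusted limma p below 0.05 and none was higher. This was Thy1, at 9.70 and 10.03 with JQ1, against 10.77 and 10.39 with DMSO (change -0.71, SE 0.21), whose p was 0.0868 without JQ1 replicate 1 and 0.0782 without DMSO replicate 1. The summed linear signal of the 7 was 8413 and 9062 with JQ1, against 10774 and 8877 with DMSO. Of 5 measured genes of natural killer and CD8 T cells, 2 were lower with JQ1 at an unadjusted limma p below 0.05, Klrd1 at -1.73 (SE 0.25) and Cd8a at -0.73 (SE 0.20), and none was higher; for Cd8a the p was 0.0622 without JQ1 replicate 1 and 0.0594 without DMSO replicate 2. The summed linear signal of the 5 was 184 and 240 with JQ1, against 366 and 337 with DMSO. Klrd1 and Cd8a were under 5.80 on both JQ1 arrays and above it on both DMSO arrays. Ncr1 and Eomes were under it on every array. Cd8b1 was above it on every array, at 5.88 and 6.56 with JQ1, against 6.86 and 6.72 with DMSO (change -0.57, SE 0.25). For 5 B cell genes, of which 0 had an unadjusted p below 0.05, it was 217 and 204 with JQ1, against 250 and 274 with DMSO. For 5 myeloid genes, of which 4, including Itgam, Csf1r and Adgre1, were under 5.80 on every array, it was 210 and 187 with JQ1, against 215 and 197 with DMSO, and 0 had an unadjusted p below 0.05. For 5 epithelial genes, of which Cldn4 was at -0.72 (SE 0.22) and missed the unadjusted threshold without JQ1 replicate 2 (change -0.48) and without DMSO replicate 2 (change -0.59), it was 252 and 221 with JQ1, against 282 and 289 with DMSO. The part of natural killer, CD8 T and B cells in the lower signals of Il10 and Il24 was not tested.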

How the data were processed

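Affymetrix exon arrays read total RNA of 4 samples, 1 array each. Per the labels' protocols, a whole-transcript kit amplified the RNA, which was labelled with biotin. The deposited log2 values were made by RMA in Affymetrix Expression Console, per the submitters' processing notes, with no version or setting named. These notes also list hg19, a human build, so no gene coordinates are printed beside array values.

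Of 23332 rows, 14996 carried 1 gene symbol in the platform annotation (1019 several, 7317 none), and 14941 of these matched RefSeq by Entrez identifier. Of several rows for 1 gene (135 genes) the one with the highest mean was used, giving 14860 genes; each family member had 1 row. JQ1 was compared with DMSO in limma 3.58.1 (R 4.3.3; lmFit, eBayes, two-sided, 2 residual and 3.43 prior degrees of freedom, no filter), tested on simulated data. No label pairs the replicate numbers, and the main fit used no pairing. Across all genes, replicate 1 minus replicate 2 with DMSO correlated at 0.0967 with the same difference with JQ1. With 1 such difference per group, this cannot show whether same-numbered samples shared cells or animals. Figures used matplotlib 3.10.9.

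The members, lists and background reference were chosen with earlier results of these data known. Named genes are all members, all relatives and neighbours on the lists, Jak1, Tyk2, Stat3 and Socs3, up to 4 genes per pathway list and 2 per marker list by smallest unadjusted p, and the 5 genes most like Il10. Further markers, among them those under the reference, are named in addition, after their values were seen. Alternatives were a variance trend, a robust prior, 3 other scalings, 2 filters on dim genes, the mean of all rows, the replicate number as a block, and each array left out.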

Additional observations from a re-analysis of the deposited data

How the results depend on the processing

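Il10 and Il24 were lower with JQ1 under all 13 alternatives that kept them (Il24 was removed by the filter at the median of brightness), at an unadjusted limma p below 0.05 in each. Their changes ranged from -1.70 to -1.04 and from -0.996 to -0.85, and their lowest adjusted p was 0.0636 and 0.0940. Above the median of brightness, Il10 and Il10rb were the only members kept. Il10 was lower at that p and its groups did not overlap, whereas Il10rb was not and its groups did. Of the kept genes 1048 were lower at that p, a larger share than over all genes. With 1 array left out, members whose JQ1 values all lay below the DMSO values numbered 2 to 4. Such an order is easier to reach with fewer arrays, and its share over all genes was not computed. No label pairs the replicate numbers, but with them as a block Il10rb joined Il10 and Il24 (-0.66, limma unadjusted p = 0.0141, adjusted p = 0.395). The change of Il10rb also grew to -1.11 without JQ1 replicate 2, and shrank to -0.21 without JQ1 replicate 1. With the block, 0 genes passed the adjusted test in place of 1, and 1538 genes had an unadjusted p below 0.05 in place of 1483.

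Genes past the adjusted test numbered 3 with a variance trend, 50 above the median and 9 above the 25th percentile of brightness, where fewer genes were tested, and 0 with any array left out; no family member was among them. Lower and higher genes at an unadjusted p below 0.05 numbered 1228 and 255 as deposited, 679 and 572 after centring, which moved the median change of all genes to 0.03, 805 and 545 after cyclic loess, and 991 and 345 after quantile normalization; 145 were higher above the median of brightness. With 1 array left out, 944 to 1549 genes had such a p, 689 to 1244 of them lower. Pathway genes then numbered 4 to 7 lower and 1 to 4 higher, and 8 were higher after cyclic loess.

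Small changes turned sign. After centring, Il20ra was at 0.047, Tyk2 at 0.013, Stat3 at 0.049, Rassf5 at 0.013, Dyrk3 at 0.0089, Pigr at 0.041 and Fcamr at 0.0043. After quantile normalization Stat3 was at 0.071 and Rassf5 at 0.0094, and after cyclic loess Stat3 was at 0.125, Rassf5 at 0.041 and Pigr at 0.0025. With 1 array left out, changes ranged from -0.80 to 0.36 for Il19, -0.032 to 0.21 for Il20, -0.039 to 0.16 for Il10ra, -0.24 to 0.10 for Il20ra, -0.12 to 0.16 for Il22ra1, -0.042 to 0.15 for Jak1, -0.092 to 0.74 for Socs3, -0.18 to 0.26 for Ifngr1, -0.46 to 0.083 for Ifnar2, -0.28 to 0.075 for Rassf5, -0.27 to 0.057 for Dyrk3 and -0.235 to 0.082 for Pigr.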
